A study of Mus musculus with 6 samples.

Results

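The cells described here were splenic germinal centre B cells in which the mRNA of Myc was caught at least once by droplet single-cell RNA sequencing. They were chosen by measured values: a barcode needed 500 detected genes and under 10% mitochondrial UMIs (unique molecular identifiers, each standing for 1 captured mRNA), at least 1 Myc UMI, at least 3 UMIs of Cd79a, Cd79b and Ms4a1 together, fewer than 2 of Ly6d, 0 of the Cd3 genes, and under 8% immunoglobulin UMIs. Of 22939 deposited barcodes 21568 passed the cell filter, 13625 met every criterion apart from Myc (below, eligible B cells), and 1179 were Myc-positive, which was 8.65% of the eligible and 5.47% of the passing cells. Myc itself and the genes of the gate are therefore described, and not tested, between Myc-positive and Myc-negative cells.

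The 6 libraries came from spleens of mice immunised with sheep red blood cells, 3 from Cγ1-Cre controls with intact Smc3 (Smc3 wt/wt) and 3 from Cγ1-Cre mice with 1 Smc3 allele deleted (Smc3 wt/-). Both groups carry Cγ1-Cre, a recombinase switched on in B cells as they enter the germinal centre reaction, so the allele is lost there and not in all cells of the animal. Smc3 encodes a core subunit of cohesin, the ring that holds chromosome loops and sister chromatids. The study's methods count more wt/wt mice than there are wt/wt libraries here, and the labels tie no mouse to a library, so p-values measure the spread between these libraries. Ages are not given in the sources used here.

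The germinal centre is where B cells mutate their antibody genes and are selected by T helper cells. Cells that present antigen well receive CD40 and antigen receptor signals in the light zone, switch on Myc for a short time, grow, and return to the dark zone to divide. MYC is a basic helix-loop-helix factor that binds DNA with its partner MAX at the E-box and is known for raising ribosome production, nucleotide synthesis and metabolism.

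The libraries held between 5223325 and 35354257 UMIs in 1268 to 5381 barcodes. Smc3 wt/- library 2 stood apart: 4.65% of its filtered cells were eligible, against 70.4% to 78.2% in the others, 60.5% of its UMIs were immunoglobulin, against 2.62% to 4.44%, and it gave 11 Myc-positive cells. Y-linked transcripts were present in wt/wt libraries 1 and 2 and wt/- library 2 and near 0 in the other 3, so sex was mixed within both groups. The libraries shared 276 barcodes in all, and no Myc-positive barcode was Myc-positive in more than 1 library. Values over 6 libraries are given in the order wt/wt 1, 2, 3 and then wt/- 1, 2, 3.

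Most Myc-positive cells carried little Myc: 791 had 1 UMI (67.1%), 212 had 2 and 176 had 3 or more, with 12 the most in a cell. Myc lies at chr15:61985391-61990374 on the plus strand (mm10). The Myc-positive cells were also deeper than their Myc-negative neighbours, with median UMIs per library of 5411 to 9566 against 2558.5 to 5714.5. A deeper cell is more likely to show any given mRNA, so for the tests below each Myc-positive cell was set against 1 Myc-negative eligible cell of the same library and like UMI count (depth-matched cells). In wt/- library 2 the match was incomplete: the 11 Myc-positive cells held 110015 UMIs and their 11 matches 79946, with median detected genes of 2284 and 1689. The germinal centre name was set beside its genes: 12 or 13 of 13 germinal centre genes were detected in the Myc-positive cells of every library. Their summed level was 1009 to 2718 CPM (UMIs of a gene scaled to a common library total), while 15 naive and memory B cell genes summed to 223.6 to 418.1 CPM. Both lists hold Cd38 and Ccr6, and the study gated germinal centre B cells as CD38-negative. Detection in a sum over many cells is easily met, so these values describe the name and do not test it. That the cells had been selected is part of their name and was not measured.

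In the wt/wt libraries the Myc-positive share of eligible B cells was 15.3% (exact 95% binomial interval 12.7% to 18.1%, 110 of 719 cells), 6.81% (6.05% to 7.65%, 267 of 3918) and 8.84% (7.88% to 9.89%, 280 of 3166). In the wt/- libraries it was 10.4% (9.04% to 11.8%, 198 of 1909), 6.43% (3.25% to 11.2%, 11 of 171) and 8.36% (7.50% to 9.30%, 313 of 3742). Intervals cover counting error only. The groups overlapped, with means of 10.3% ± 4.43 and 8.39% ± 1.97 (SD, n = 3 each), and the difference of -1.93 percentage points gave p = 0.6 in a two-sided exact permutation test, which cannot go below 0.1 with 3 against 3 libraries. Without wt/wt library 1 the difference was 0.560 points, the opposite direction. With every cell thinned to 2000 UMIs it was -0.804 points (exact permutation p = 1.0), and wt/- was then the higher of the same-numbered libraries in 2 and 3. With at least 2 Myc UMIs it was -0.395 points (p = 0.8, exact permutation test).

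Free mRNA in the droplets can place a Myc UMI in a cell that makes none. Among plasma cells, most of whose UMIs were immunoglobulin, 2.60% had a Myc UMI (1.89% to 3.47%, 44 of 1693 cells, median 15622 UMIs). Among non-cycling cells (0 UMIs of Mki67 and Top2a) with 2 or more Ighd UMIs, a sign of naive B cells, 6.56% had one (4.59% to 9.05%, 34 of 518, median 2397 UMIs). The share was 8.65% of eligible cells at a median of 5134. Of 56 neutrophil cells, all from wt/- library 2 and at a median of 3835 UMIs, 3 had a Myc UMI (5.36%, 1.12% to 14.9%), beside 6.43% of that library's eligible cells. These pooled shares mix libraries unevenly, since 1611 of the plasma cells came from wt/- library 2, where 2.55% had a Myc UMI. Within libraries the Ighd cells had the higher share in wt/- library 1 (14.6%, 7 of 48 cells, against 10.4% of eligible cells) and wt/- library 2 (8.60%, 8 of 93, against 6.43%), and the lower share in the other 4. Which of the cells with 1 UMI made Myc was not resolved at this depth.

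**Figure D1:**
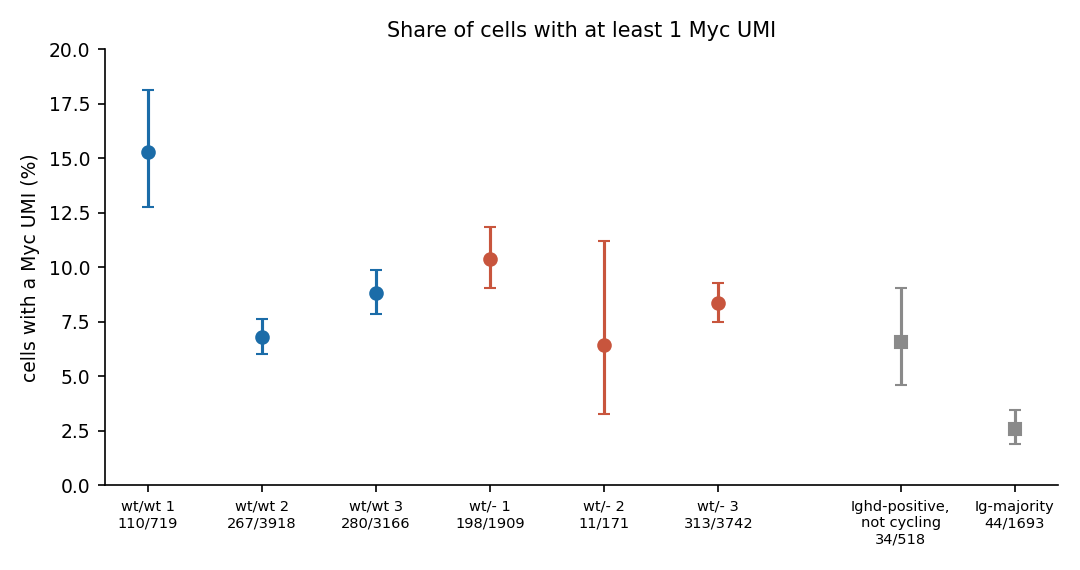
Share of eligible B cells with at least 1 Myc UMI, in percent, for the 3 Smc3 wt/wt and 3 Smc3 wt/- libraries, with exact 95% binomial intervals; grey squares are the Ighd-positive non-cycling cells and the plasma cells whose UMIs were mostly immunoglobulin. The wt/wt libraries lie between 6.81% and 15.3% and the wt/- libraries between 6.43% and 10.4%, so the groups overlap.

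The 5 marker genes given for these cells besides Myc had higher median levels over libraries in each bin of more Myc UMIs. Npm1, the nucleolar chaperone nucleophosmin, had a median level over 5 libraries of 1331 CPM in eligible cells with 0 Myc UMIs, 2244 with 1, 2529 with 2 and 3693 with 3 or more. Hspd1, the mitochondrial chaperonin, went from 286 to 569, 698 and 1036 CPM. Ncl, or nucleolin, went from 744 to 1159, 1415 and 1953, Mif, a cytokine, from 576 to 1047, 1258 and 1632, and Ranbp1, which regulates the nuclear transport GTPase Ran, from 857 to 1309, 1476 and 1643. Ccnd2, the G1 cyclin D2, was at 7.51, 50.9, 38.8 and 203 CPM, and the activation marker Cd83 at 171, 289, 326 and 392. The proliferation gene Mki67 went the other way, 298, 246, 243 and 176 CPM, as did the dark zone chemokine receptor Cxcr4, 22.4, 14.1, 12.2 and 10.8. The bins held 12286, 784, 210 and 174 cells, were not matched for depth, and left out wt/- library 2, so these values are a description. Single libraries did not all follow the medians: in wt/wt library 1 all 5 marker genes were lower at 2 than at 1 UMI, such as Npm1 at 1352 and 1583 CPM, and in wt/wt library 2 Ranbp1 was at 1196 and 1224.

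**Figure D2:**
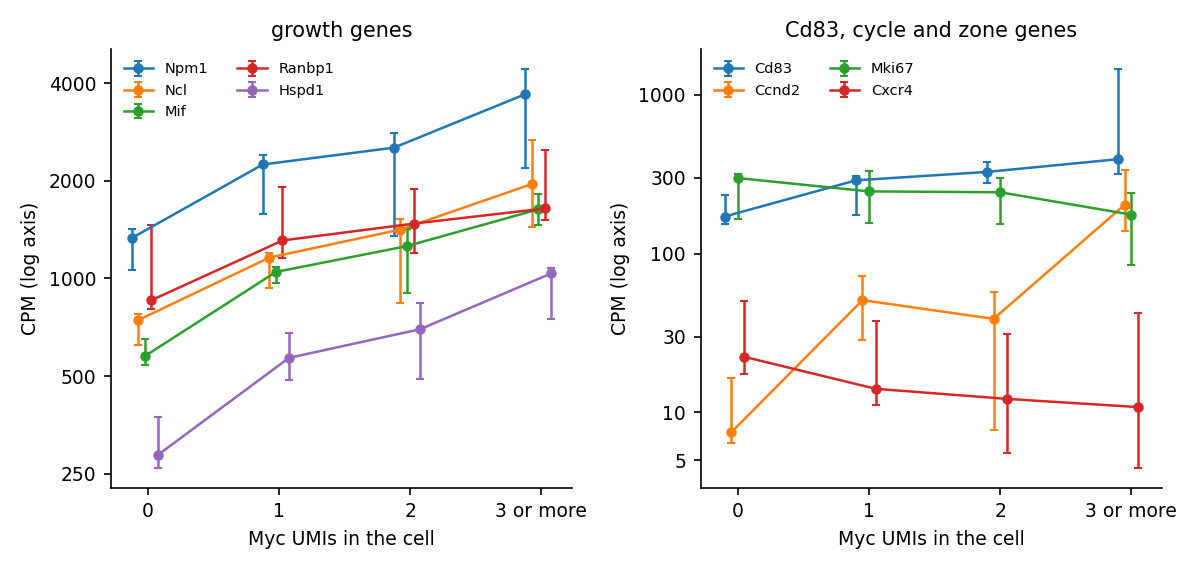
Level in CPM (log axis) of named genes in eligible B cells with 0, 1, 2 or at least 3 Myc UMIs, as medians over the 5 libraries with 20 or more Myc-positive cells, with bars from the lowest to the highest library. Npm1 climbs from 1331 to 3693 CPM and Mki67 falls from 298 to 176.

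Against depth-matched Myc-negative cells, 957 of 9192 genes were higher in the Myc-positive cells (10.4%) and 746 were lower (8.12%), by edgeR's quasi-likelihood test with libraries as blocks and a Benjamini-Hochberg adjusted p under 0.05. The median log2 fold change over all genes was -0.00. The 5 marker genes were all higher, which is a description since they are part of how the cells were named. Hspd1 was at 537, 678, 639, 758, 929 and 743 CPM in the Myc-positive and 419, 505, 457, 484, 282 and 543 in the matched cells, higher in each library though the ranges overlapped. Its log2 fold change was 0.50 ± 0.04 (SE), beside 0.50 for Ncl, 0.45 for Npm1, 0.43 for Mif and 0.27 for Ranbp1.

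Genes of CD40 and NF-κB signalling, the T cell help pathway, were the list with the largest median rise. Of 27 tested, 25 were higher and 0 lower, with a median log2 fold change of 0.98. Nfkbia, the inhibitor IκBα that NF-κB itself induces, was at 212, 329, 309, 201, 232 and 198 CPM against 59.4, 55.5, 82.2, 67.2, 161 and 59.1, with no overlap between the classes (log2 fold change 1.94 ± 0.07, adjusted p = 1.66e-39 by edgeR). Cd83 was at 468, 321, 280.4, 326, 196 and 231 CPM against 158, 94.8, 111, 109.8, 148 and 88.0, also without overlap (1.50 ± 0.06, 3.40e-39). Nfkbid, a nuclear IκB protein, rose by 2.43, Mir155hg, the host transcript of miR-155, by 2.16, and Tnfaip3, the A20 brake on NF-κB, by 1.96 on the log2 scale. The receptor Cd40 (1.03), the subunits Nfkb2 (0.97) and Rel (0.79) and the transcription factor Irf4 (0.98) were higher too. The survival gene Bcl2a1d rose by 1.51, but the Bcl2a1 copies are near-identical, and how reads were split among them is uncertain. Nfkb1 (-0.06) and Gadd45b (0.06), named after their values were seen, did not pass.

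Batf, an AP-1 factor needed for class switching, was at 68.0, 108, 142, 48.1, 26.8 and 71.5 CPM in the Myc-positive cells and 20.3, 19.8, 27.4, 24.7, 0 and 21.2 in the matched ones, where the classes met only through wt/- library 2 (log2 fold change 2.01 ± 0.10, adjusted p = 8.02e-30 by edgeR). Il4i1, a secreted amino acid oxidase induced in activated B cells, was at 113, 106, 106, 95.8, 80.4 and 80.0 CPM against 45.9, 23.3, 25.3, 23.2, 40.3 and 18.8 (2.01 ± 0.09, 1.04e-33). Slfn2, a growth regulator of lymphocytes, rose by 1.30. The immediate early genes, which follow receptor signals within minutes, were split. Of 17 tested, Egr3, Egr2 and Nr4a1 had 0 to 4 UMIs per library in the matched cells, so that they could pass the filter on low counts only through the Myc-positive cells, and no fold is given for them. Of the other 14, 4 were higher and 3 lower. Egr1 (1.61), Junb (1.34), Ier2 (1.27) and Dusp2 (0.41) were higher, Fosb (-0.65), Fos (-0.40) and Btg2 (-0.33) were lower, and the abundant Jund was at 0.02. Egr3 was at 5.9 to 15.0 CPM in the Myc-positive and 0 to 1.45 in the matched cells. Of 6 genes that tissue dissociation induces 4 were tested, of which 1 was higher and 1 was lower, the latter being Fos. Over all 17, 7 were higher and 3 lower against matched cells. Against all Myc-negative cells, which were not matched for depth, 8 of the 17 were higher and 9 lower (median -0.19). With cells thinned to 2000 UMIs 4 of 13 tested were higher and 0 lower against matched cells (0.23).

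**Figure D3:**
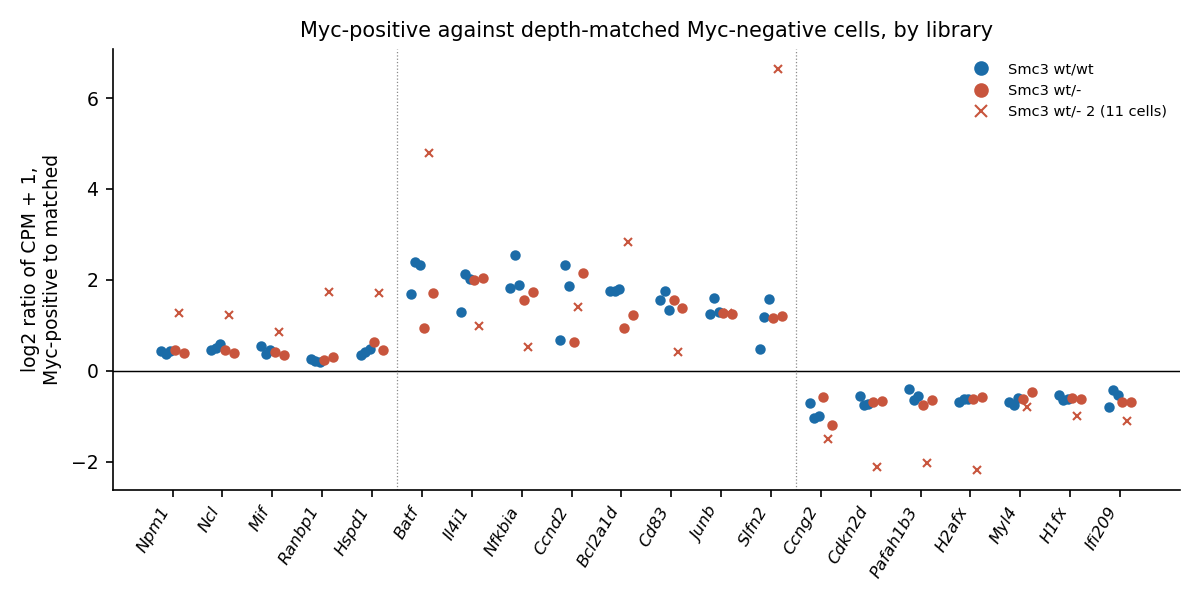
Log2 ratio of Myc-positive to depth-matched Myc-negative cells for named genes, a point for each of the 6 libraries, with 1 CPM added to both levels and crosses for wt/- library 2 with its 11 cells. Nfkbia, Il4i1 and Cd83 lie above 0 in every library and H2afx and H1fx below it.

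The growth genes moved less but together. Of 45 genes of the nucleolus and ribosome biogenesis, 43 were higher and 0 lower, with a median of 0.49. Gnl3, the nucleolar GTPase nucleostemin, was at 151, 189.6, 180.5, 121, 107 and 162 CPM against 68.9, 92.7, 80.7, 72.1, 26.9 and 86.1, without overlap (log2 fold change 0.999 ± 0.06, adjusted p = 1.37e-23 by edgeR). Polr1b, a subunit of RNA polymerase I, rose by 0.91, the ribosomal RNA processing factors Rrp9 and Rrp1b by 0.79 each, Nolc1 by 0.73 and the helicase Ddx21 by 0.68. Polr1a (0.36) and Utp20 (0.53), named after their values were seen, were the 2 that did not pass. The same direction held for translation, where 19 of 25 genes were higher and 0 lower (median 0.24): Eef1e1 rose by 0.72, Eif1a by 0.61, and the abundant Eif4a1 and Eif5a by 0.35 and 0.31. Of 26 chaperones and mitochondrial import genes 23 were higher and 0 lower (median 0.28), led by the import proteins Timm10 (0.77), Timm9 (0.63) and Timm8a1 (0.60) and with Hspa8 at 0.34 and Hsp90ab1 at 0.26.

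Among genes of nuclear transport and polyamine synthesis 12 of 19 were higher and 1 lower (median 0.25). Srm, spermidine synthase, was at 185, 199, 231, 275, 188 and 189 CPM against 119, 133, 116, 151, 40.3 and 119, without overlap (log2 fold change 0.78 ± 0.06, adjusted p = 3.31e-20 by edgeR). Amd1 (0.52) and Odc1 (0.39), the other committed enzymes of polyamine synthesis, were higher, and the importin Kpna2, which peaks in mitosis, was lower (-0.33). In purine, pyrimidine and one-carbon synthesis 13 of 23 were higher and 1 lower (median 0.25), with Pfas at 0.63, Shmt1 at 0.58, Ppat, the first enzyme of purine synthesis, at 0.56. In glycolysis 8 of 16 were higher and 0 lower (median 0.14). Hk2 (0.91), the lactate carrier Slc16a1 (0.63) and Ldha (0.37) rose, while Gapdh stood at 0.03. The nutrient uptake and mTORC1 genes were mixed, 4 higher and 2 lower of 12, with the transferrin receptor Tfrc at 0.57, the amino acid carrier Slc7a5 at 0.48, the glutamine carrier Slc1a5 at -0.17 and the mTORC1 inhibitor Sesn3 at -0.26. In the network of MYC partners 4 of 14 were higher, Tfap4 (0.64), Max (0.21), Ruvbl1 (0.21) and Ruvbl2 (0.15), and the MYC antagonists Mxd4 (-0.51) and Mxd3 (-0.47) were lower.

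The promoters of some of these genes are shown because the DNA motif of MYC and MAX, the E-box CACGTG, and a κB motif of NF-κB, GGGANTTTCC, can be read in them. Each window holds 60 bases of the plus or minus strand as the gene runs, 5′ to 3′, from RefSeq promoters of GRCm38.p6 that reach from 250 bases before to 50 after the gene start, with the motif in capitals. The first 4 hold the E-box and the last 2 the κB motif: Hspd1 at chr1:55088291-55088350 (minus), Nop2, a nucleolar RNA methyltransferase, at chr6:125131796-125131855 (plus), Timm10 at chr2:84827011-84827070 (plus), Slc16a1 at chr3:104638437-104638496 (plus), Nfkbia at chr12:55492642-55492701 (minus) and Nfkb2 at chr19:46305680-46305739 (plus).
Hspd1: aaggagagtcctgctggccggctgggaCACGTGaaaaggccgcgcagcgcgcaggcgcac
Nop2: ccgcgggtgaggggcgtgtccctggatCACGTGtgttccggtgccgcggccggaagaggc
Timm10: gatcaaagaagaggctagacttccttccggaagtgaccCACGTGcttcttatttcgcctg
Slc16a1: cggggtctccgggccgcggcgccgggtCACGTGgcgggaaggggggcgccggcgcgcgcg
Nfkbia: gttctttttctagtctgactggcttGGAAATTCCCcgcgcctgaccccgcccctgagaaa
Nfkb2: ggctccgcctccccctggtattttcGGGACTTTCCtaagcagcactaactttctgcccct

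CACGTG, which reads the same on both strands, was in 8.09% of 27025 promoters, 12.5% of the 7250 of tested genes, 20.2% of the 746 of genes higher in Myc-positive cells and 8.78% of the 581 of lower genes. It was in 9 of 41 nucleolar promoters (22.0%), 7 of 20 of the translation list (35.0%), 6 of 22 of the chaperone list (27.3%) and 2 of 24 of the CD40 and NF-κB list (8.33%). GGGANTTTCC, sought on both strands, was in 0.466% of all promoters and in 2 of 24 of the CD40 and NF-κB list, Nfkbia and Nfkb2. It was in 0.455% of tested genes, 0.670% of the higher (5 of 746) and 0.516% of the lower (3 of 581), so these shares were alike. A match is a description of the letters and not of binding.

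Cell cycle genes split by phase. Of 14 genes of G1 entry 3 were higher, Ccnd2, Cdk6 (0.60) and Cdk4 (0.18), and 2 lower, E2f2 (-0.41) and Cdkn2c (-0.33). Ccnd2 was at 50.7, 107, 104, 80.8, 179 and 68.1 CPM against 31.1, 20.5, 28.0, 51.8, 67.2 and 14.6, higher in every library (log2 fold change 1.70 ± 0.11, adjusted p = 5.72e-23 by edgeR). Of 21 S phase genes 2 were higher, Ung (0.48) and Hells (0.34), and 0 lower. Of 22 genes of G2 and mitosis 0 were higher and 20 lower, with a median of -0.33, such as Ube2c (-0.48), Cenpf (-0.52), Top2a (-0.34) and Mki67 (-0.37). Against all Myc-negative cells 2 were higher and 7 lower, with a median of -0.05, so the size of this fall depended on the depth-matched comparison. Esco2 (-0.43) and Cdca5 (-0.32), which establish sister chromatid cohesion, were 2 of 4 lower genes among 15 of cohesin and its regulators, the others being Rad21 (-0.23) and Ctcf (-0.16), with Smc3 at -0.05.

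The dark zone list, genes of the cells that mutate and divide, was lower: 8 of 10 fell, 0 rose and the median was -0.45. With at least 2 Myc UMIs per Myc-positive cell 9 of 10 fell and the median was -0.82. Polh, the error-prone polymerase eta, was at -1.12, Bach2 at -0.56, Cxcr4 at -0.54, Foxo1 at -0.39 and Pou2af1 at -0.33. H2afx, the histone marked at DNA breaks, was at 415, 475, 509, 476, 196 and 450.4 CPM against 662, 724, 776, 732, 887 and 668, with no overlap (log2 fold change -0.63 ± 0.04, adjusted p = 3.42e-22 by edgeR), and Ccng2, a cyclin of cells leaving the cycle, at -0.96. Other genes with large falls were the cell cycle inhibitor Cdkn2d (-0.70), Pafah1b3 (-0.63), the myosin light chain Myl4 (-0.62), the linker histone H1fx (-0.61) and Ifi209 (-0.61). Bcl6, the master regulator of the germinal centre, was at -0.23 and did not pass, and 5 of 13 germinal centre genes were lower. Fcer2a, the low affinity IgE receptor CD23, rose by 1.13 and the migration receptor Gpr183 by 0.73, while Klf2, a factor of resting cells, fell by 0.70 on the log2 scale.

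**Figure D4:**
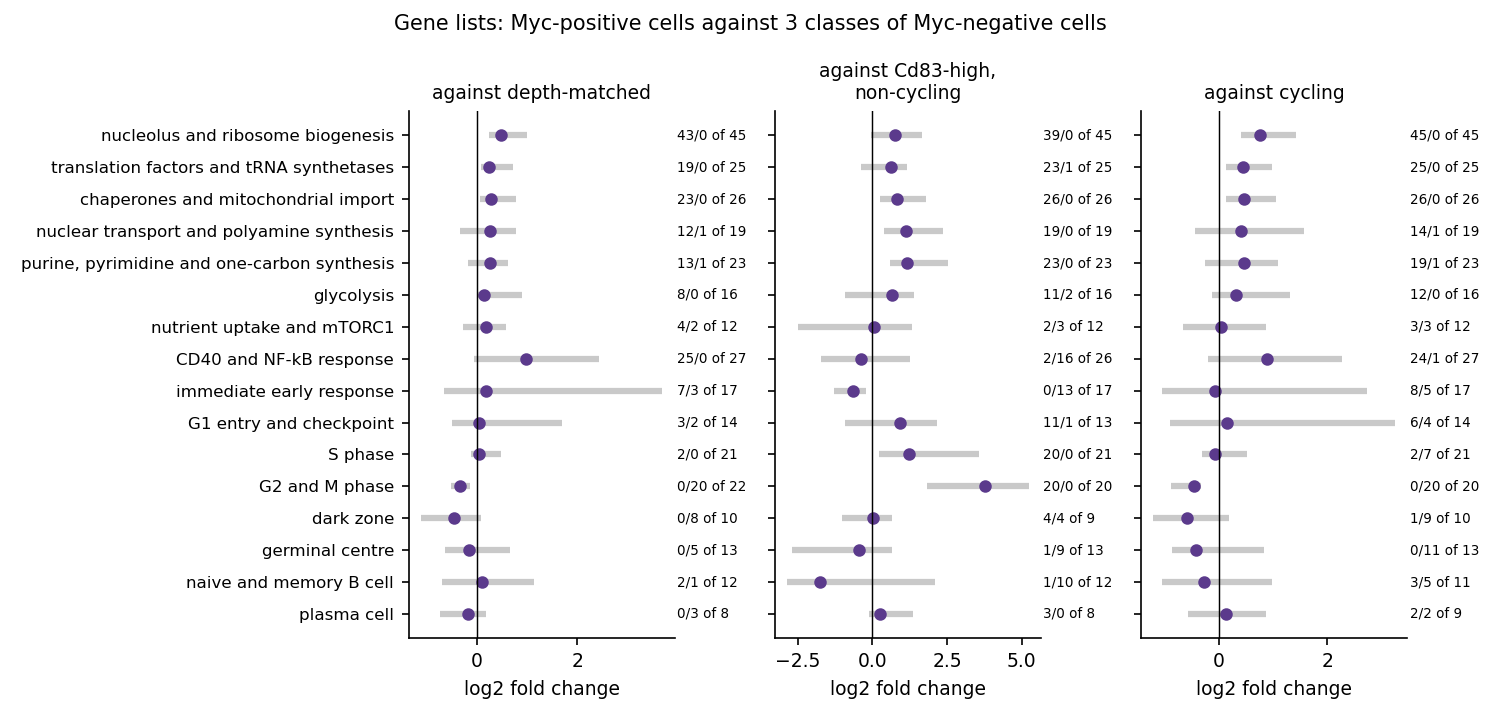
Median log2 fold change of each gene list in Myc-positive cells against depth-matched, Cd83-high non-cycling and cycling Myc-negative cells, as points, with grey bars from the lowest to the highest member and the number higher, lower and tested at the right. The CD40 and NF-κB list is at 0.98 against matched cells and -0.40 against Cd83-high cells.

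Markers of other cells were counted beside these results. Of the T cell list 4 of 15 genes were tested, of which Lck (0.22) and Cxcr5 (0.56) were higher and Cd2 (-0.45) lower, with summed levels of 81.8 to 214.7 CPM in the Myc-positive and 177.9 to 250.2 in the matched cells. Cxcr5 is the follicle homing receptor, so this sum is not a count of T cells. Plasma cell genes summed to 1479 to 2057 CPM against 1839 to 2148, with 3 of 8 lower, Mzb1 (-0.26), Xbp1 (-0.24) and Slamf7 (-0.40). No neutrophil or B cell precursor gene was abundant enough to test, and 0 of 2 monocyte genes passed. Erythroid genes were lower in 5 of 6 (median -5.15): their sum was 44.4 to 399.9 CPM in the Myc-positive cells but reached 137380 CPM in the matched cells of wt/- library 2, where few cells were matched, and in wt/wt library 2 a single matched cell held 5783 of 6179 haemoglobin UMIs. With haemoglobin-rich cells left out 0 of 5 erythroid genes were lower and 1 was higher (median 0.12), and DESeq2 called 1 of 6 lower. Without wt/- library 2 the nucleolar list had 44 of 45 higher, the CD40 and NF-κB list 24 of 26, the G2 and mitosis list 20 of 22 lower and the dark zone list 8 of 10 lower.

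The Myc-positive cells were also placed by Cd83, which marks light zone cells, and by cycling, taken as 2 or more UMIs of Mki67 and Top2a. Cells with 2 or more Cd83 UMIs made up 48.0% ± 3.58 of the Myc-positive and 21.4% ± 2.96 of the matched cells (SD, n = 6 libraries), a difference of 26.6 ± 2.55 points that was positive in 6 of 6 libraries. A two-sided exact sign-flip permutation test gave p = 0.03125, the smallest it can give, and 0.0625 after adjustment over 6 measures, so no measure passed the correction. The cycling share was 69.3% ± 7.74 against 69.7% ± 13.0 (difference -0.433 ± 9.52, exact p = 1.0). That mean rested on wt/- library 2, without which the difference was -4.16 points, and the share was higher in the Myc-positive cells of 1 of 6 libraries. Cells both Cd83-high and cycling made up 33.7% against 14.6% (higher in 6 of 6, exact p = 0.03125, adjusted 0.0625), and cycling cells with under 2 Cd83 UMIs 35.6% against 55.1%, lower in 6 of 6 with the same p.

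**Figure D5:**
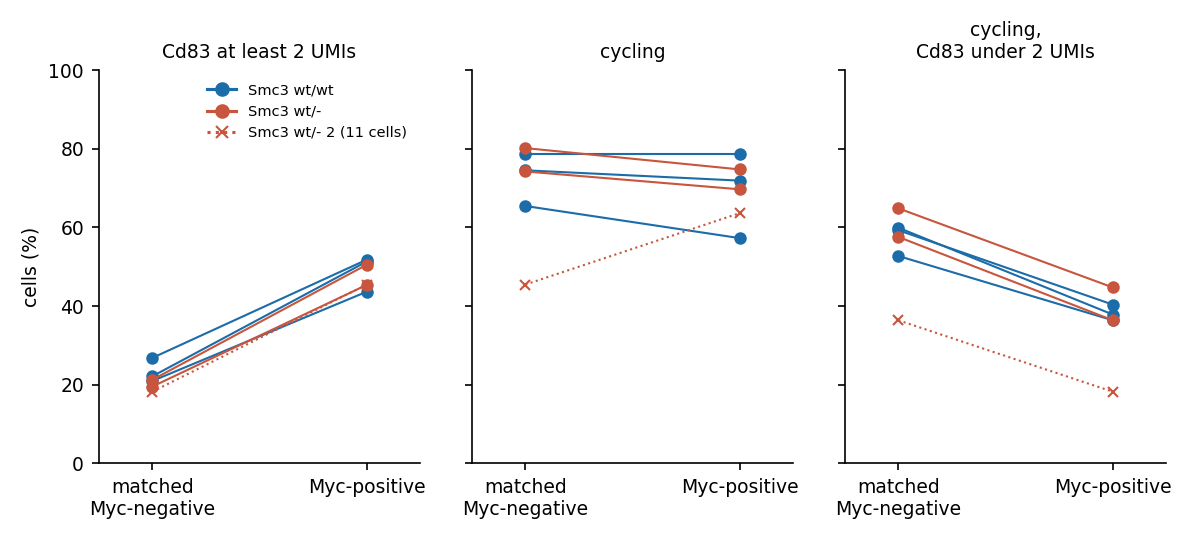
Percent of Myc-positive and of depth-matched Myc-negative cells per library in 3 gates (Cd83-high, cycling, cycling with under 2 Cd83 UMIs), lines joining the same library and crosses for wt/- library 2. The Cd83 share is higher in the Myc-positive cells of all 6 libraries, by 26.6 points on average, and the cycling share differs by -0.433, or by -4.16 without wt/- library 2.

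The Myc-positive cells were then set against 1107 Myc-negative cells that were Cd83-high and not cycling. Not cycling means 0 UMIs of Mki67 and Top2a, so cells between this and the cycling gate were in neither class. The gate fixes Cd83 and the cycling genes, so the 20 of 20 tested genes of G2 and mitosis that were higher are no result, and depth was not matched. The comparators were chosen as not cycling, while 69.3% of the Myc-positive cells cycled, so growth or S phase genes and cycling cannot be told apart here and the list counts that follow are a description. Of 7949 genes 28.4% were higher and 27.1% lower, 2258 and 2155 genes. With haemoglobin-rich cells left out, the split was 1832 and 2687. Higher values were called for 39 of 45 nucleolar genes (median 0.76), 23 of 25 of translation (1 lower, 0.63), 26 of 26 chaperone genes (0.81), 19 of 19 of nuclear transport and polyamine synthesis (1.12), 23 of 23 of nucleotide synthesis (1.16) and 11 of 16 of glycolysis (2 lower, 0.67), beside a median of -0.03 over all genes. Of 12 genes of nutrient uptake and mTORC1 2 were higher and 3 lower (median 0.043). S phase genes were higher in 20 of 21 (1.22) and genes of G1 entry in 11 of 13, with 1 lower (0.91). Hspd1 was at 547, 688, 648, 767, 984 and 753 CPM against 270.4, 201, 194, 229, 162 and 214, without overlap (log2 fold change 1.73, a marker gene).

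In that comparison Cd83, a member of the CD40 and NF-κB list, chose the comparators. Of the Myc-positive cells 48.0% met the Cd83 part of that gate, and 9.67% met it and were also not cycling. The gate and the list's direction therefore cannot be told apart. Of 26 CD40 and NF-κB genes 16 were lower and 2 higher (median -0.40), and 13 of 17 immediate early genes were lower and 0 higher (median -0.66). With at least 2 Myc UMIs per Myc-positive cell the CD40 and NF-κB list was split, 9 higher and 10 lower (median -0.02), while 9 of 17 immediate early genes were lower and 0 higher (-0.61). With cells thinned to 2000 UMIs 6 of 22 and 6 of 15 were lower (-0.21 and -0.36). Lists named for other cells were lower too: 3 of 3 tested genes of the T cell list (median -1.09), 2 of 2 monocyte genes (-1.48) and 4 of 5 erythroid genes (-0.81). The T cell list holds Cxcr5 and Cd2 as well, so its sum is not a count of T cells. T cell genes, with the Cd3 genes at 0 by the gate, summed to 81.8 to 214.7 CPM in the Myc-positive and 385.3 to 516.2 in the Cd83-high cells, monocyte genes to 5.37 to 54.5 and 6.02 to 156.4, and erythroid genes to 44.4 to 399.9 and 114.4 to 737.4. Their part in the result was not tested. Il4i1 was at 115, 108, 107, 97.0, 85.2 and 81.1 CPM against 445, 359.7, 222, 322, 203 and 376, without overlap (log2 fold change -1.72 ± 0.08, adjusted p = 1.29e-64 by edgeR), whereas it had been higher than in matched cells. Nfkbia did not differ past the threshold (0.05 ± 0.08, adjusted p = 0.64 by edgeR), and Batf was higher at 1.24. Naive and memory genes were lower in 10 of 12 (median -1.77). Klf2 was at 36.6, 8.51, 9.56, 14.7, 18.9 and 19.9 CPM against 90.2, 75.9, 102, 85.1, 709 and 92.3 (-2.70 ± 0.14, 1.51e-58), without overlap. The protease inhibitor Serpinb1a (-3.25), Pxdc1 (-2.64), the MYC antagonist Mxd4 (-2.29), the actin-severing protein Gsn (-2.18), Snx29 (-2.15), Tm6sf1 (-1.98) and the ectoenzyme Cd38 (-1.95) had the other largest falls among genes of at least 50 CPM in the higher class and the same sign in all 6 libraries.

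Against 6497 cycling Myc-negative cells 1685 of 9455 genes were higher (17.8%) and 2515 lower (26.6%), with a median of -0.08 over all genes. That split moved with the scaling, to 1965 higher and 2040 lower with DESeq2's size factors, and to 2119 and 1925 without wt/- library 2. All 45 nucleolar genes were higher (median 0.76), as were 25 of 25 translation genes, 26 of 26 chaperone genes and 24 of 27 CD40 and NF-κB genes (0.88). Ccnd2 was at 50.7, 105, 103, 80.2, 176 and 66.9 CPM against 15.7, 8.34, 6.9, 18.5, 52.0 and 5.9 (log2 fold change 3.25 ± 0.13, adjusted p = 3.22e-25 by edgeR), higher in every library. The fatty acid binding protein Fabp5 (1.63), the tRNA methyltransferase Mettl1 (1.35) and Srm (1.57) were higher, and Ccng2 (-1.37), the DNA repair glycosylase Neil3 (-1.27), H2afx (-1.14), Bach2 (-1.12) and the MYC antagonist Mxd3 (-1.09) lower. Of 20 tested genes of G2 and mitosis 20 were lower, which the gate on Mki67 and Top2a touches, and 13 of 15 cohesin genes were lower. The comparators all cycled by that gate, against 69.3% of the Myc-positive cells, and depth was not matched. Cohesin genes and cycling therefore cannot be told apart here. Against the Cd83-high non-cycling cells 9 of 15 cohesin genes were higher and 2 lower (median 0.36). Of 5 erythroid genes 4 were lower and 1 higher (median -1.71), with sums of 70.6 to 538.5 CPM in the cycling cells, and their part in the result was not tested. Of 13 germinal centre genes 11 were lower and 0 higher against the cycling cells, and 9 lower and 1 higher against the Cd83-high cells. The 3 comparisons share the Myc-positive cells.

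Class switching was read as the share of heavy chain UMIs from switched isotypes. It was 36.5%, 41.8%, 30.2%, 38.7%, 63.0% and 28.8% in the Myc-positive and 52.9%, 42.8%, 38.6%, 32.2%, 52.2% and 24.4% in the matched cells. The mean difference was -0.707 ± 10.1 points (SD, n = 6, two-sided exact sign-flip permutation test p = 0.875). The 3 wt/wt libraries were all lower in the Myc-positive cells, by a mean difference of -8.60 ± 7.73, and the 3 wt/- libraries all higher, by 7.18 ± 3.26. In wt/- library 2 each class had 11 cells, and 60.5% of that library's UMIs were immunoglobulin. Whether free heavy chain mRNA entered its shares was not tested. The gap between genotypes of 15.8 points gave p = 0.1 in a two-sided exact permutation test, the smallest that 3 against 3 allows. This split of the genotypes did not hold under several alternatives. Without haemoglobin-rich cells wt/- library 2 was at 55.2% against 56.4%, and with thinning wt/- library 1 at 22.2% against 28.3%. With 2 Myc UMIs wt/wt library 1 was at 33.9% against 26.3% and wt/- library 3 at 27.6% against 31.9%. Against all Myc-negative cells wt/wt libraries 2 and 3 were higher, at 41.8% against 31.3% and 30.2% against 29.4%.

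Within the Myc-positive cells, genotype was compared over 3 against 3 libraries. Smc3 (chr19:53600398-53645833) was at 150, 168 and 177 CPM in wt/wt and 153, 83.1 and 192 in wt/- libraries (log2 fold change -0.04 ± 0.18), so the groups overlapped. Reads were counted at the 3′ end of transcripts, which may lie outside the deleted part, so these values do not check the genotype. By edgeR without a replicate block 0 of 8490 genes passed (0.0%). With the replicate number as a block 27 of 8838 passed (0.305%), 11 higher and 16 lower in wt/-. Before adjustment 292 genes had p under 0.05, and in DESeq2 0 genes passed and 39 did so before adjustment. The difference from matched cells depended on genotype for 8 of 9192 genes (0.087%) by edgeR and for 0 by DESeq2. The libraries of the groups did not overlap for 9.75% of genes, and for 1 of the 5 marker genes, Hspd1, at 544.7, 681.5 and 642 against 759.8, 960.2 and 743 CPM (0.37 ± 0.18, adjusted p = 1.0 by edgeR).

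The CD40 and NF-κB list, higher than in matched Myc-negative cells, had negative values in wt/- for 24 of 26 genes (median -0.39) and the immediate early list for 17 of 17 (median -0.32), beside -0.01 over all genes, with 0 genes of either past the threshold without the block and 6 of 26 and 4 of 17 not overlapping. With cells thinned to 2000 UMIs 16 of 22 CD40 and NF-κB genes were negative (median -0.24), and without wt/- library 1 21 of 27 were (-0.26) and 15 of 17 immediate early genes (-0.55). With the block 1 of 27 CD40 and NF-κB genes passed as higher and 1 as lower, and 1 of 17 immediate early genes as lower. The genotype term of the difference from matched cells was smaller. Its median was -0.20 for the CD40 and NF-κB list (9 of 27 genes positive) and -0.14 for the immediate early list (6 of 17 positive), with 0 called in either. Batf was at 68.9, 108 and 142 CPM in wt/wt and 48.2, 27.7 and 71.5 in wt/- libraries, with 1 overlap (-0.92 ± 0.23; with the replicate block -0.89 ± 0.17, adjusted p = 0.000101 by edgeR), and Nfkbia at 214.9, 330.4 and 309.9 against 201, 240.0 and 198 (-0.49 ± 0.18). The nucleolar list had a median of -0.01. Lmo2, a transcription factor of germinal centre cells named after its values were seen, had the lowest adjusted p, at 87.9, 83.7 and 81.3 against 41.4, 27.7 and 43.4 CPM, without overlap (-0.998 ± 0.15, adjusted p = 0.0577 by edgeR without the block, and below the threshold with it). Myc itself was at 49.9, 18.8 and 19.6 CPM over all eligible cells of wt/wt and 29.3, 34.3 and 20.7 of wt/- libraries (-0.08 ± 0.39, adjusted p = 1.0 by edgeR).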

How the data were processed

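The deposited files are raw UMI counts per gene and barcode, made by the authors with Cell Ranger (version 3.0.2 per the matrix headers) on mm10 per the labels; Seurat 4.0.0 and R 4.0.2 are in the submitters' processing notes and made none of the values used. No author annotation of cells was used. Cells were gated as the report states, doublets were kept in the main values, and an alternative removed the top Scrublet scores (scanpy 1.11.5) at 0.8% per 1000 barcodes, which held 36 of the Myc-positive cells. Counts were summed per library and class and tested in R 4.3.3 with edgeR 4.0.16 (TMM, filterByExpr, quasi-likelihood, adjusted p under 0.05), with library blocks between classes and no block between genotypes. The procedure was tested on simulated data. DESeq2 1.42.0 was an alternative, as were no low-count filter, looser cell filters (200 genes, 20% mitochondrial), leaving out Ighd cells, 2 Myc UMIs, thinning to 2000 UMIs, all Myc-negative cells, sex as a covariate and each library left out. Leaving out cells with 10 or more haemoglobin UMIs was chosen after seeing the data.

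Named genes were the genes of the gate, the given markers, up to 8 higher and 8 lower genes by fold with the same sign in 6 libraries and 50 CPM, the highest members of each list or members past the threshold, and Smc3; some genes that this rule names are not reported here. The members and lists were chosen with earlier results of these data known. CPM were scaled within each comparison. Replicate numbers in the labels recur in both genotypes: over all eligible cells same-numbered libraries deviated together (correlations 0.212, 0.104 and 0.153), so the blocked fit is given beside the genotype result.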

Additional observations from a re-analysis of the deposited data

Results flagged for a closer look

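In wt/- library 2 the share of cycling cells was 18.2 points higher in the Myc-positive than in the matched cells, far from the other 5 libraries. That library had 11 Myc-positive cells, 7 such groups of 6 libraries were looked at, and about 1 in 20 is singled out by chance.

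The switched share of heavy chain UMIs, Myc-positive minus matched, was 15.8 points higher in wt/- than in wt/wt libraries, with all libraries of one genotype on one side of 0 and all of the other on the opposite side. The exact permutation p was 0.1, the smallest possible, and 7 measures were looked at this way. In wt/- library 2 each class had 11 cells. The opposite sides were lost without haemoglobin-rich cells (wt/- library 2 at 55.2% against 56.4%), with thinning, with 2 Myc UMIs and against all Myc-negative cells.

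For 8 of 9192 genes (0.087%) the log2 fold change between Myc-positive and matched cells differed between genotypes by edgeR's interaction term. Of these 4 were haemoglobin genes, Hbb-bs (-2.32), Hbb-bt (-2.06), Hba-a2 (-2.28) and Hba-a1 (-2.26), wt/- minus wt/wt, which were carried by few matched cells. Sub1, a transcription coactivator, differed by 0.88 (adjusted p = 1.35e-05). It was at 112, 144.8, 106.9, 356, 616 and 126.8 CPM in the Myc-positive and 487.6, 159.5, 167.9, 320.7, 134.5 and 128.6 in the matched cells, so wt/wt library 1 and wt/- library 2 lay furthest apart. Golga3 differed by -1.59, Bhlhe41 by -4.56 and Cxcr5, the follicle homing receptor, by -0.80. Bhlhe41 had at most 17 UMIs in any class sum. DESeq2 called 0 genes, with 57 at an unadjusted p under 0.05.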

How the results depend on the processing

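Between Myc-positive and depth-matched cells 1703 genes were called, against 1010 with DESeq2, 378 after thinning to 2000 UMIs and 4487 against all Myc-negative cells. DESeq2 shared 1009 of its 1010 calls and thinning 361 of 378. Leaving out each library gave 1208 to 1830. Thinning gave 2179 calls against Cd83-high cells (leave-one-out 3711 to 4466) and 1400 against cycling cells (3181 to 4167). Thinning also left 39 nucleolar genes tested, 21 of them higher, and against all Myc-negative cells 45 of 45 were higher (median 0.90). Between genotypes the 0 calls became 27 without a low-count filter, 2 after thinning and 1 without haemoglobin-rich cells (leave-one-out 0 to 2). The fit with a replicate block gave 27, 11 higher and 16 lower. In the Myc-positive sums same-numbered libraries correlated at 0.143, 0.0791 and 0.0978, and each library correlated best with its own number. With the replicate block the Myc-positive share difference was -1.93 points, lower in wt/- in 3 of 3 pairs (exact sign-flip p = 0.25, the smallest that 3 pairs allow), but after thinning 2 of 3 pairs were higher in wt/- (2.62% against 5.83% and 2.56% against 2.83%), and with 2 Myc UMIs 1 was (2.27% against 2.34%). The interaction gave 0 with DESeq2, 4 with looser cell filters and 2 after thinning, but 12 without a low-count filter, with 2 Myc UMIs and against all Myc-negative cells, and 10 without doublets. Leave-one-out gave 1 (without wt/- library 2) to 13 (without wt/- library 3). The cause of these changes was not tested.

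The Myc difference between genotypes over all eligible cells turned to 0.25 with sex as a covariate and ran from -0.34 to 0.44 with a library left out. The Myc-positive share difference ran from -3.68 to 0.560 points. The switched share difference turned to 5.49 against all Myc-negative cells and ran from -3.00 to 2.43, and the cycling share difference from -4.16 to 1.12. Without wt/wt library 1 these were 0.560, 2.43 and 1.12.

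Of 2550 gene values under alternatives in the 3 class comparisons 2393 kept direction and side of the threshold, 121 lost the call, 18 gained one and 18 turned. Turned values against matched cells were, with all Myc-negative cells, Gadd45b -0.15, Jund -0.19, Kpna2 0.075, Lck -0.0076, Smc3 0.14 and Xbp1 0.25. With 2 Myc UMIs Gadd45b was at -0.091, Gapdh at -0.095 and Jund at -0.052, and with thinning Gapdh at -0.036 and Smc3 at 0.010. Against Cd83-high cells Bcl2a1d turned to 0.40 with 2 Myc UMIs and 0.069 with DESeq2, Egr3 to 0.38 with thinning and Nfkbia to -0.079 without haemoglobin-rich cells. Between genotypes Myc was at 0.063 with sex as a covariate, and Ranbp1 at -0.087 without haemoglobin-rich cells, -0.079 without doublets and -0.040 with thinning. In the interaction Hba-a1 turned to 0.53 and Hbb-bs to 0.69 without haemoglobin-rich cells, and Hba-a1 to 0.078 and Hba-a2 to 0.13 without Ighd cells.

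With a library left out, values that turned ran from -0.10 to 0.0031 for Nfkb1 against matched cells, from -0.057 to 0.17 for Nfkbia against Cd83-high cells, and from -5.98 to 0.027 for Hba-a1 in the interaction. Between genotypes they ran from -0.014 to 0.14 for Mif, -0.38 to 0.054 for Myc, -0.25 to 0.048 for Ncl, -0.087 to 0.30 for Npm1, -0.12 to 0.21 for Ranbp1 and -0.26 to 0.058 for Smc3, and over all eligible cells from -0.36 to 0.019 for Smc3.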
